A study of Mus musculus with 6 samples.

Results

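The genes described here are 34 members of the cadherin adhesion system outside the protocadherins, read from 54532 gene identifiers in RNA sequencing of mouse whole brain. They were taken from a list of names, matched by symbol to the GENCODE M21 annotation of GRCm38, and all 34 were found. They comprise 4 type I and 11 type II classical cadherins, the glycosylphosphatidylinositol (GPI)-anchored cadherin Cdh13, the cadherin-related gene Cdhr1, the desmosomal cadherins Dsg2 and Dsc2, 3 Flamingo cadherins (Celsr), 5 Fat and Dachsous cadherins, 5 catenins and the focal adhesion kinases Ptk2 and Ptk2b. All 6 animals were C57BL/6J mice at postnatal day 14 and all carried the Nestin-Cre transgene, which drives recombination in neural progenitors and the cells that descend from them. Per the labels, 3 controls had the genotype Mphosph8fl/+ Nestin-Cre+ and 3 mutants had Mphosph8fl/fl Nestin-Cre+. The controls thus had 1 floxed allele as well, and their titles hold the word HET, whereas the study's own text names only the transgene for them. With the transgene present that allele is open to deletion in neural cells. The comparison is therefore with heterozygous and not with intact brains, and an effect shared by both groups would not show. Cells outside the neural lineage, such as microglia, are not a target of the transgene, so a whole brain still holds cells with an intact gene.

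Mphosph8 encodes MPP8, a subunit of the HUSH complex that silences transcription from heterochromatin. Its counts fell by 1.01 on the log2 scale (SE 0.12, edgeR adjusted p = 0.000157), from 58.4 ± 11.3 to 28.9 ± 3.63 CPM (counts scaled to a common library size; mean ± SD, n = 3 in each group throughout), over the whole gene and not the floxed exon alone. Libraries held 12956880 to 15223424 counts. Control replicate 3 had 3641 counts on Y-linked genes and 27 on Xist, while the other 5 libraries had at most 1 and at least 11130. By these counts control replicate 3 was male and the rest were female. Sex was thus not balanced between the groups and was not a term of the fit. The 34 genes together took 0.303% to 0.329% of the counts in a library, and the rarest of them, Dsc2, had 183 counts over all 6 libraries.

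Classical cadherins join neighbouring cells by binding a like molecule on the opposite membrane, mainly through the outermost of their extracellular repeats. Their cytoplasmic tails bind β-catenin and p120-family catenins, and α-catenin links that complex to actin. Cells that carry different cadherins sort from one another, and the type II genes in particular mark separate nuclei, layers and fibre tracts of the developing brain. Fat, Dachsous and Flamingo cadherins are much larger proteins that act in planar cell polarity and in the outgrowth of neurites. Protocadherins, the largest branch of the superfamily, lack the catenin-binding tail, and Ptk2 and Ptk2b are kinases that protocadherins can bind.

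The sequence that separates the type I from the type II genes lies at the start of the first extracellular repeat, where a tryptophan side chain docks into the partner molecule. The first 12 codons of that repeat are shown for the 6 classical cadherins to which the comparisons below return most often, from GENCODE M21 transcripts on GRCm38, with the tryptophan codons (TGG) in capitals. The stretch was located by searching the reading frame for the conserved start of the repeat, which holds 1 such codon in type I and 2 in type II genes, so that the number of codons was part of the search. All 3 type I genes and 11 type II genes searched had a match.

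Cdh1 (type I, chr8:106653582-106653617, plus strand): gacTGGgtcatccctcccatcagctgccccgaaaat
Cdh4 (type I, chr2:179797560-179797595, plus strand): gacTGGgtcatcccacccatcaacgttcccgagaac
Cdh7 (type II, chr1:109994321-109994356, plus strand): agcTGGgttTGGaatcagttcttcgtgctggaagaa
Cdh12 (type II, chr15:21237843-21237878, plus strand): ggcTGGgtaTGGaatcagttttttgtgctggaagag
Cdh20 (type II, chr1:104934274-104934309, plus strand): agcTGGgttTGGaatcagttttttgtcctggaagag
Cdh22 (type II, chr2:165180937-165180972, minus strand): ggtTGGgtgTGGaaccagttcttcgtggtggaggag

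Each of these runs lies within 1 coding exon. The type II genes Cdh6, Cdh9, Cdh10, Cdh12 and Cdh18 follow one another over 10.45 Mb of chromosome 15, Cdh8, Cdh11 and Cdh5 lie within 5.12 Mb of chromosome 8, and Cdh20 and Cdh7 within 5.37 Mb of chromosome 1. Ctnna1, which encodes αE-catenin, was the nearest of the 34 to the clustered protocadherins on chromosome 18, at a distance of 1.68 Mb. Cdh2, Dsg2 and Dsc2 lie on the same chromosome at 16.33 to 20.12 Mb. The longest transcripts of the 15 classical cadherin genes had 12 to 17 exons, with a median of 13. Those of the 22 beta protocadherins had a median of 1 exon. The median was 4 exons for the 14 alpha and 4 for the 22 gamma protocadherins.

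The 34 genes were compared at the level of RNA between mutant brains, with both Mphosph8 alleles floxed, and control brains, with 1 floxed allele. None of them passed the test. All 34 passed the filter on low counts, and 0 of 34 were called at an adjusted p under 0.05 with a change of more than 2-fold, where 0.359% of the 16731 genes tested were called. Without the fold threshold 0 of 34 passed as well, against 0.628% of all genes. One member, Ctnnd2, had an unadjusted p under 0.05 in edgeR, which is 1 of 34 against 6.51% of all genes. In 4 of 34 genes the groups did not overlap, against 11.6% of all genes. Of the 34 members, DESeq2 and limma-voom also gave 0 past adjustment and 1 with an unadjusted p under 0.05 in each.

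The estimates were small and lay on both sides of 0. Of the 34, 15 were higher and 19 lower in mutants, where 47.6% of all genes tested were higher. The log2 fold changes (mutant over control throughout) ran from -0.32 for Cdh1 to 0.22 for Ctnnd2, with a median of -0.03 and a median size of 0.10, against -0.01 and 0.09 over all genes tested. The 95% intervals, each for 1 gene and not widened for the number of genes, lay within a 2-fold change in either direction for 34 of 34 (91.5% of all genes tested). They lay within 1.5-fold for 31 of 34 (74.3%). Of the 30 members with at least 10 CPM, 30 had an interval within 1.5-fold, as did 98.2% of the 10753 genes that reached that level. The 3 genes whose intervals reached past 1.5-fold, each on the lower side only, were Cdh1, Dsg2 and Dsc2, all under 10 CPM. Celsr1, also under 10 CPM, had an interval within 1.5-fold.

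**Figure D1:**
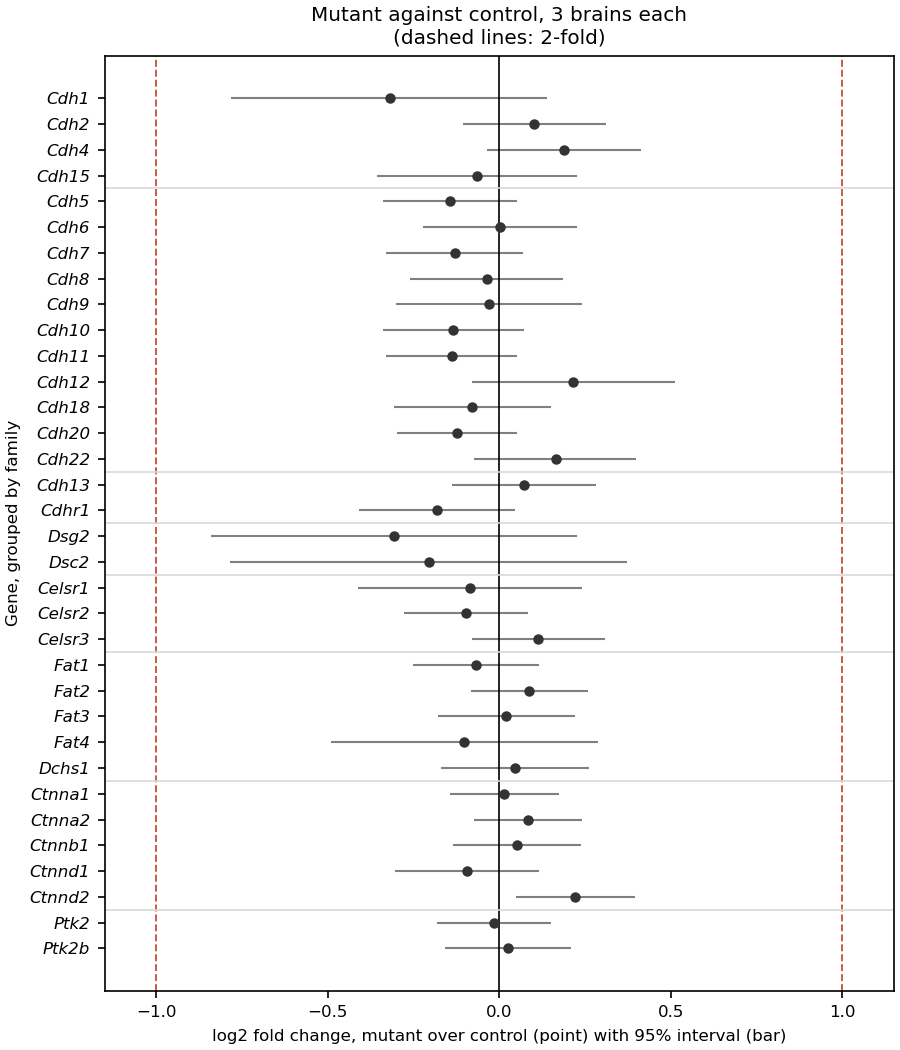
Log2 fold change of mutant over control brains for each of the 34 genes (points) with its 95% interval from edgeR (bars), 3 libraries per group, with families separated by grey lines and 2-fold changes marked by dashed lines. Every interval lies inside the dashed lines, and only that of Ctnnd2 (0.05 to 0.40) leaves out 0.

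The contrast with the clustered protocadherins was large. Of 58 listed, 56 were tested and 21 were called higher in mutants, with a median log2 fold change of 0.73, and earlier results of these data had already shown that rise. Of the 56, 48 were higher and 8 lower, and 3 of the lower ones passed an adjusted p of 0.05 without reaching a 2-fold change. Genes that work with the 34 members resembled them: 70 of 81 listed partners were tested, 0 passed an adjusted p of 0.05, 30 were higher and 40 lower, and their median log2 fold change was -0.01.

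**Figure D2:**
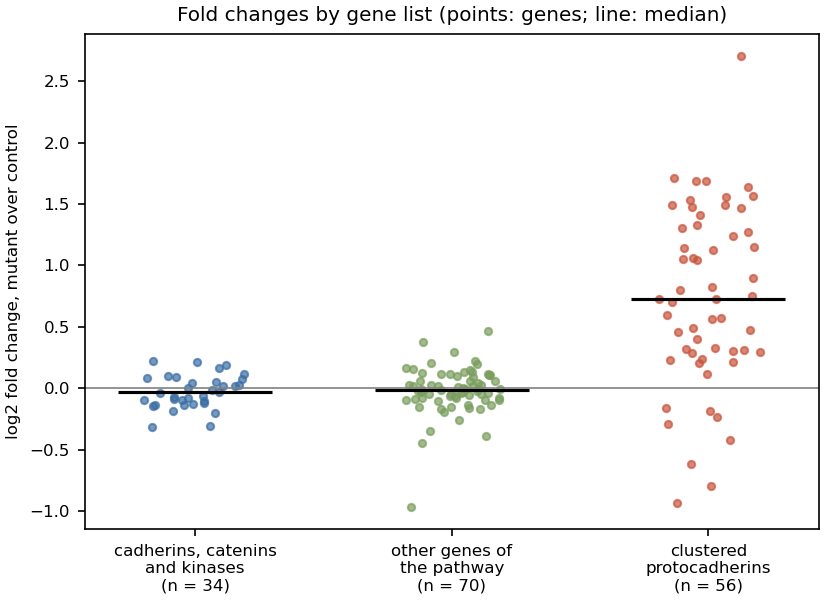
Log2 fold changes of single genes (points) with the median of each list (line) for the 34 cadherins, catenins and kinases, the 70 tested partner genes and the 56 tested clustered protocadherins. The first 2 lists centre near 0 with medians of -0.03 and -0.01, and the third has a median of 0.73.

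Levels between genes were compared as CPM per kb of exonic sequence not shared with another gene on the same strand. On that scale the 34 genes spanned a wide range in control brains, from 0.387 ± 0.114 for the desmosomal cadherin Dsg2 to 173 ± 2.23 for Ctnnb1, which encodes β-catenin. The next 3 were Ctnnd2 at 24.0 ± 0.760, Ctnna2 at 21.3 ± 0.363 and Celsr2 at 18.6 ± 0.893, of which Ctnna2 and Celsr2 did not overlap in any library. Cdh22 followed at 18.1 ± 1.97, within the spread of Celsr2. At the low end, Dsc2 (0.448 ± 0.135) could not be separated from Dsg2, and Celsr1 (0.753 ± 0.107) and Cdh1 (1.08 ± 0.307) came next. Dsg2, Dsc2, Celsr1 and Cdh1 were the 4 genes under 10 CPM in controls, and 10 genes were over 100 CPM.

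**Figure D3:**
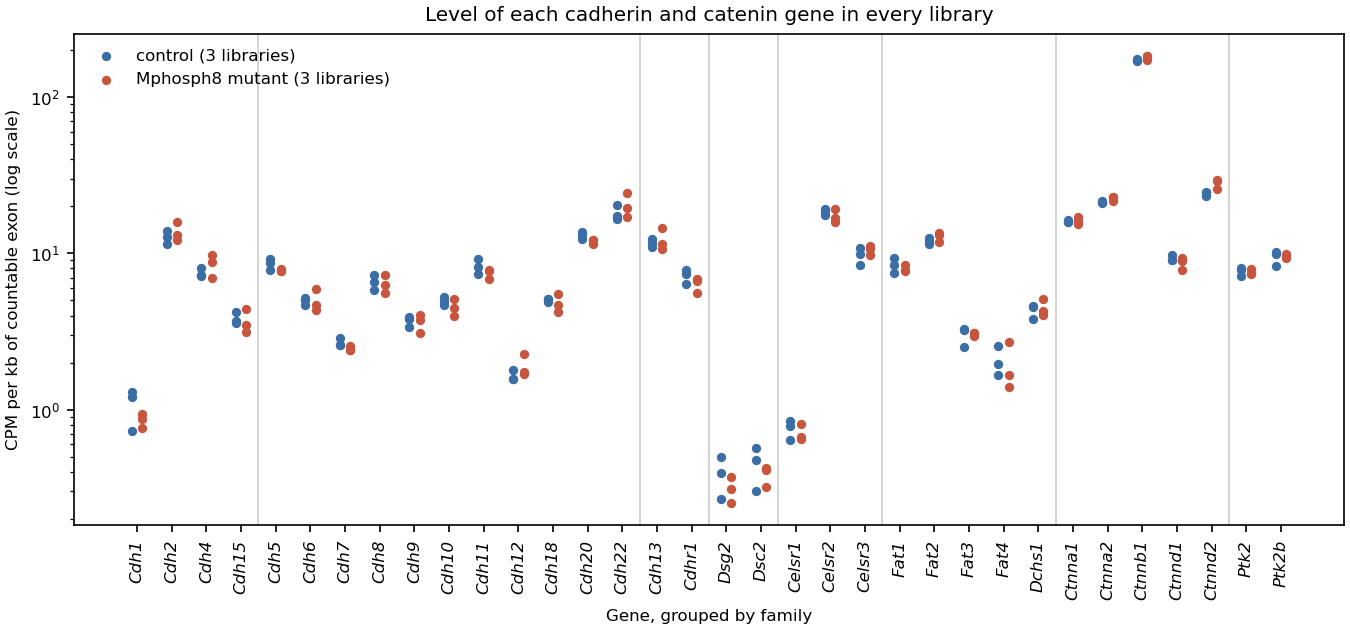
Level of each gene in CPM per kb of countable exon (log scale) in the 3 control libraries (blue) and 3 mutant libraries (red), with families separated by grey lines. Ctnnb1 stands at 173 in controls, most genes lie between 2 and 30, and Dsg2, Dsc2 and Celsr1 lie below 1.

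Among the classical cadherins, type I members were the neural N-cadherin Cdh2, the retinal R-cadherin Cdh4, the M-cadherin of muscle and cerebellum Cdh15 and the epithelial E-cadherin Cdh1. Cdh2 was at 92.2, 103.3 and 112.3 CPM in the 3 controls and at 127.1, 98.4 and 105.1 in the 3 mutants. Only 1 mutant stood above the control range, and the log2 fold change was 0.10 (95% interval -0.11 to 0.31). Cdh4 measured 51.8, 52.8 and 58.2 CPM in controls and 71.2, 50.3 and 64.1 in mutants. A pair of mutants exceeded every control and the third lay below all of them, with a log2 fold change of 0.19 (-0.04 to 0.41). The value was 0.08 without mutant replicate 1 and 0.32 without mutant replicate 2 (unadjusted p = 0.0053, adjusted p = 0.285 in edgeR). Cdh1, a marker of epithelia that is scarce in brain parenchyma, gave 3.33, 5.93 and 5.53 CPM in controls and 3.998, 3.51 and 4.29 in mutants. Its change of -0.32 (-0.78 to 0.14) was the lowest of the 34, but its controls alone varied by 28.5% (CV) and the lowest value of all was a control. Without control replicate 1 the value was -0.54 (unadjusted p = 0.0147 in edgeR, not past adjustment), and without control replicate 2 it was -0.17. Cdh15 changed by -0.07 (-0.36 to 0.23).

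Of the type II genes, 8 were lower and 3 higher in mutants, where 47.6% of all genes tested were higher. Their log2 fold changes ran from -0.14 (Cdh5) to 0.22 (Cdh12) with a median of -0.08. Among the lower ones, Cdh8, Cdh9 and Cdh18 reversed direction when certain single libraries were left out. None passed an unadjusted p of 0.05. In Cdh20 and Cdh7, neighbours on chromosome 1, the groups did not overlap. Cdh20 measured 49.5, 52.4 and 54.7 CPM in controls and 49.0, 48.9 and 46.0 in mutants. Each mutant was below each control, by a log2 fold change of -0.12 (-0.30 to 0.05), and the nearest mutant and control differed by less than the SD of either group. Cdh7 gave 25.9, 26.2 and 28.7 CPM in controls and 25.4, 24.1 and 24.3 in mutants, a change of -0.13 (-0.33 to 0.07). Over all genes tested 5.42% were lower in mutants without overlap, and these 2 are 2 of 34.

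The 5 type II genes of chromosome 15 did not move as a block. Cdh12, once called brain cadherin, had the highest value of the type II genes at 0.22 (-0.08 to 0.51). It stood at 9.58, 9.59 and 10.9 CPM in controls and at 13.9, 10.4 and 10.7 in mutants, so that 1 mutant library carried most of the difference. Without mutant replicate 1 the value was 0.07. Cdh6, a marker of several brain nuclei, was at 0.002 (-0.22 to 0.23), Cdh9 at -0.03 (-0.30 to 0.24), Cdh18 at -0.08 (-0.31 to 0.15) and Cdh10 at -0.13 (-0.34 to 0.07). Cdh9 and Cdh10 are known for synapse and circuit specificity.

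Cdh22 was the most abundant classical cadherin per kb, with 17.7% ± 2.46 of the summed level of the 15 genes in controls and 19.6% ± 1.71 in mutants. Cdh20 (12.7% ± 0.272) and Cdh2 (12.4% ± 0.830) followed in controls and did not differ beyond their spread. In CPM, Cdh22 read 75.1, 64.5 and 61.2 in controls and 90.1, 63.0 and 72.1 in mutants. The groups overlapped, with a log2 fold change of 0.16 (-0.07 to 0.40), which fell to 0.01 without mutant replicate 1. The groups also overlapped in Cdh8 (-0.04, interval -0.26 to 0.19) and in Cdh11 (-0.14, -0.33 to 0.05), both cadherins of cortical and limbic neurons. Cdh5, the VE-cadherin of endothelial junctions, was at 33.0, 36.6 and 38.9 CPM in controls and at 32.5, 33.5 and 32.2 in mutants. Its change was -0.14 (-0.34 to 0.05), and 6 of 7 endothelial marker genes were also lower, with summed levels of 463.4 to 468.5 CPM in controls and 413.8 to 490.1 in mutants. Their part in the value of Cdh5 was not tested.

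Cdh13 (T-cadherin), which is held in the membrane by a GPI anchor and has no catenin-binding tail, gave 130.6, 122.6 and 137.8 CPM in controls and 162.7, 120.6 and 128.1 in mutants. Mutant replicate 1 alone lay above the controls, and the log2 fold change was 0.07 (-0.14 to 0.28). Cdhr1, known from photoreceptors and from mitral and tufted cells of the olfactory bulb, measured 27.7, 32.1 and 33.9 CPM in controls and 28.6, 24.0 and 29.9 in mutants, a change of -0.18 (-0.41 to 0.05). All 5 genes listed as markers of mitral and tufted cells were lower too, from -0.06 (Slc17a7 and Doc2g) to -0.30 (Eomes), with 0 of 5 past adjustment. Their summed levels were 820.3 to 879.9 CPM in controls and 752.1 to 898.9 in mutants. Most of that sum was Slc17a7, at 805.7 ± 27.0 CPM in controls and 774 ± 74.9 in mutants. Slc17a7 is also among the neuronal markers below, so the sum is not specific to these cells. The part of these cells in the value of Cdhr1 was not tested. The desmosomal cadherins, which bind plakoglobin and plakophilins instead of β-catenin, were at -0.31 (-0.84 to 0.23) for Dsg2 and -0.21 (-0.79 to 0.37) for Dsc2, with single libraries between 1.596 and 4.101 CPM. Leaving out 1 library moved Dsg2 between -0.51 (without control replicate 3) and -0.10 (without control replicate 2), and Dsc2 between -0.43 (without control replicate 1) and -0.005 (without control replicate 2).

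The Flamingo cadherins combine cadherin repeats with a 7-pass transmembrane domain. Celsr2 and Celsr3 act in ciliogenesis of ependymal cells and in the guidance of axon tracts, and Celsr1 orients progenitors and ependyma. Celsr3 measured 100.9, 118.6 and 129.4 CPM in controls and 116.5, 127.9 and 133.2 in mutants, and the log2 fold change was 0.11 (-0.08 to 0.31). Celsr2 gave 202.3, 216.4 and 222.2 CPM in controls and 221.2, 183.8 and 194.2 in mutants, a change of -0.10 (-0.28 to 0.08). Celsr1 was at -0.09 (-0.41 to 0.24). The 3 genes thus pointed in both directions, and their sum was 338.3 ± 25.8 CPM in controls and 333.4 ± 13.8 in mutants.

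Of the Fat and Dachsous genes, Fat2, a product of cerebellar granule cells, was the most abundant per kb, at 12.02 ± 0.476 in controls and 12.8 ± 0.904 in mutants. Its log2 fold change was 0.09 (-0.08 to 0.26), beside a summed level of granule cell markers of 1042 to 1230 CPM in controls and 1103 to 1144 in mutants. Fat4 and Dchs1 form a receptor and ligand pair that acts in neural progenitors. Fat4 was the most variable of the 34 genes in the mutants. It read 33.5, 28.6 and 44.0 CPM in controls and 28.5, 24.0 and 46.4 in mutants, so that the highest and the lowest libraries were both mutants. The CV was 22.2% and 36.0%, whereas the median over the 34 genes was 7.93% in controls and 10.6% in mutants. Its change of -0.10 (-0.49 to 0.29) was -0.44 without mutant replicate 3 and 0.09 without control replicate 3. Dchs1 was at 0.05 (-0.17 to 0.26), Fat1 at -0.07 (-0.25 to 0.12) and Fat3, which shapes the dendrites of retinal amacrine cells, at 0.02 (-0.18 to 0.22).

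**Figure D4:**
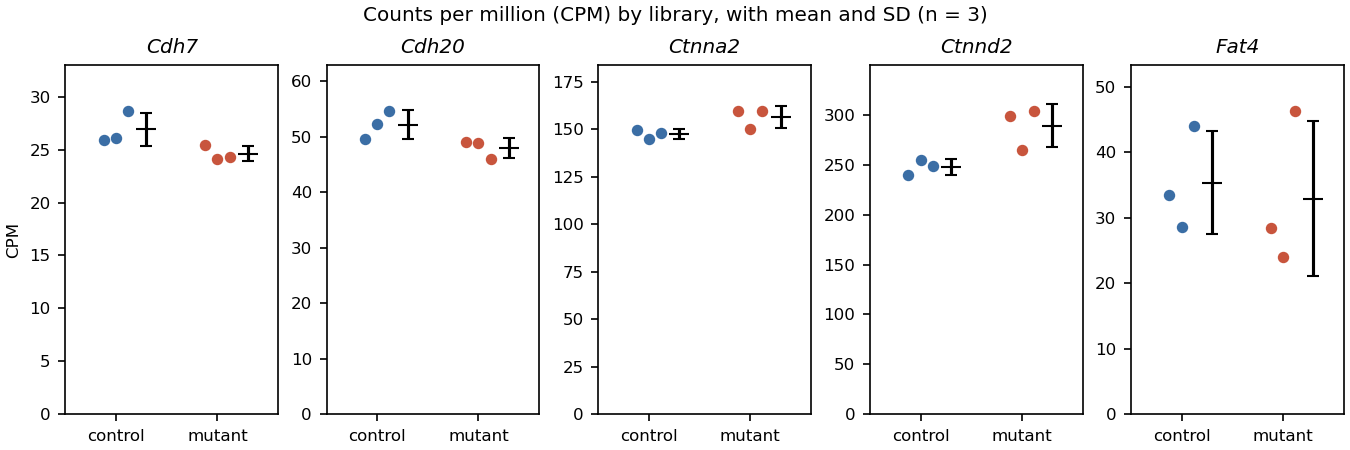
CPM of single libraries (points) with mean and SD (black, n = 3) for the 4 genes whose groups did not overlap, Cdh7, Cdh20, Ctnna2 and Ctnnd2, and for Fat4. The gaps between the groups are small in Cdh7, Cdh20 and Ctnna2, Ctnnd2 runs from 239.6 to 255.1 in controls and 264.6 to 304.3 in mutants, and Fat4 spreads from 24.0 to 46.4 among the mutants.

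Of the 5 catenins, 4 were higher and 1 lower in mutants, and Ctnnd2 alone had an unadjusted p under 0.05. Ctnnd2 encodes δ-catenin, a p120-family catenin of dendrites and synapses. It measured 239.6, 255.1 and 249.2 CPM in controls and 299.0, 264.6 and 304.3 in mutants. All mutants exceeded all controls, and mutant replicate 2 lay nearest to them. The log2 fold change was 0.22 (SE 0.08, 95% interval 0.05 to 0.40), with an unadjusted p of 0.0154 and an adjusted p of 0.512 in edgeR. Over all genes tested 4.09% were higher with an unadjusted p under 0.05, and 6.23% were higher without overlap. Over the alternative fits the value ran from 0.18 to 0.28 with unadjusted p-values of 0.00613 to 0.0762, the highest of which came without mutant replicate 3.

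Ctnna2, which encodes the neural αN-catenin, gave 149.9, 144.9 and 148.0 CPM in controls and 159.7, 150 and 159.8 in mutants. The lowest mutant and the highest control were almost equal, and the log2 fold change was 0.08 (-0.07 to 0.24). Ctnnb1, which serves both junctions and Wnt signalling, was the steadiest gene in controls at 896.6, 906.2 and 883.2 CPM. The mutants measured 945.1, 894.8 and 946.1, and the change was 0.05 (-0.13 to 0.24). Of its exonic bases 14.6% overlap Ulk4 on the opposite strand. Ctnna1 was at 0.01 (-0.15 to 0.17), and at -0.02 without mutant replicate 1. Ctnnd1, which encodes p120-catenin itself, was the only catenin lower in mutants at -0.09 (-0.30 to 0.12). Its level is uncertain, since 61.2% of its exonic bases are shared with Gm28635 on the same strand, a gene listed with 0 counts in every library. Summed over the 5 catenins, controls ran from 1408 to 1433 CPM and mutants from 1435 to 1538.

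The genes whose log2 CPM followed Ctnnd2 most closely over the 6 libraries were Suv39h1 (Pearson r = 0.995), Rasgrf1 (r = 0.995) and A230103L15Rik (r = 0.994). They were picked as the highest of all tested genes, so that these values describe the selection. Suv39h1, a histone H3 lysine 9 methyltransferase, differed by 0.13 and Rasgrf1 by 0.13 between genotypes, both without passing adjustment, whereas the difference in A230103L15Rik was 0.61 (edgeR, adjusted p = 0.00665).

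The focal adhesion kinases had the smallest differences of the 8 families. Ptk2 (FAK) was at 84.6, 91.9 and 95.5 CPM in controls and 88.1, 94.3 and 86.9 in mutants, with a log2 fold change of -0.01 (-0.18 to 0.15). Ptk2b (Pyk2), a calcium-dependent kinase of forebrain neurons, was at 73.7, 75.0 and 61.4 CPM in controls and 69.1, 71.6 and 73.1 in mutants, with 0.03 (-0.16 to 0.21). Both intervals lay within 1.5-fold, and the sum of the 2 was 160.7 ± 5.41 CPM in controls and 161.0 ± 4.43 in mutants.

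Single libraries accounted for much of the scatter. Mutant replicate 1 gave the highest value for 12 of 34 genes, among them Cdh2, Cdh4, Cdh12, Cdh13 and Cdh22, and the lowest for 0. Over all genes tested it was highest for 21.6% and lowest for 24.1%. Control replicate 1 gave the lowest value for 11 of 34 (17.8% over all genes) and the highest for 1. Control replicate 3, the library with Y-linked counts, was highest for 9 (16.8% over all genes). Without mutant replicate 1, 10 genes were higher and 24 lower in mutants, with a median log2 fold change of -0.10 (-0.002 over all genes). That library was picked for its many highest values, so that a downward shift without it follows from the choice. Without control replicate 3 the split was 18 to 16 with a median of 0.01 (-0.001 over all genes). The split was 14 to 20 without control replicate 1 and 16 to 18 without control replicate 2. It was 17 to 17 without mutant replicate 2 and 19 to 15 without mutant replicate 3. In each case 0 of 34 passed an adjusted p of 0.05.

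**Figure D5:**
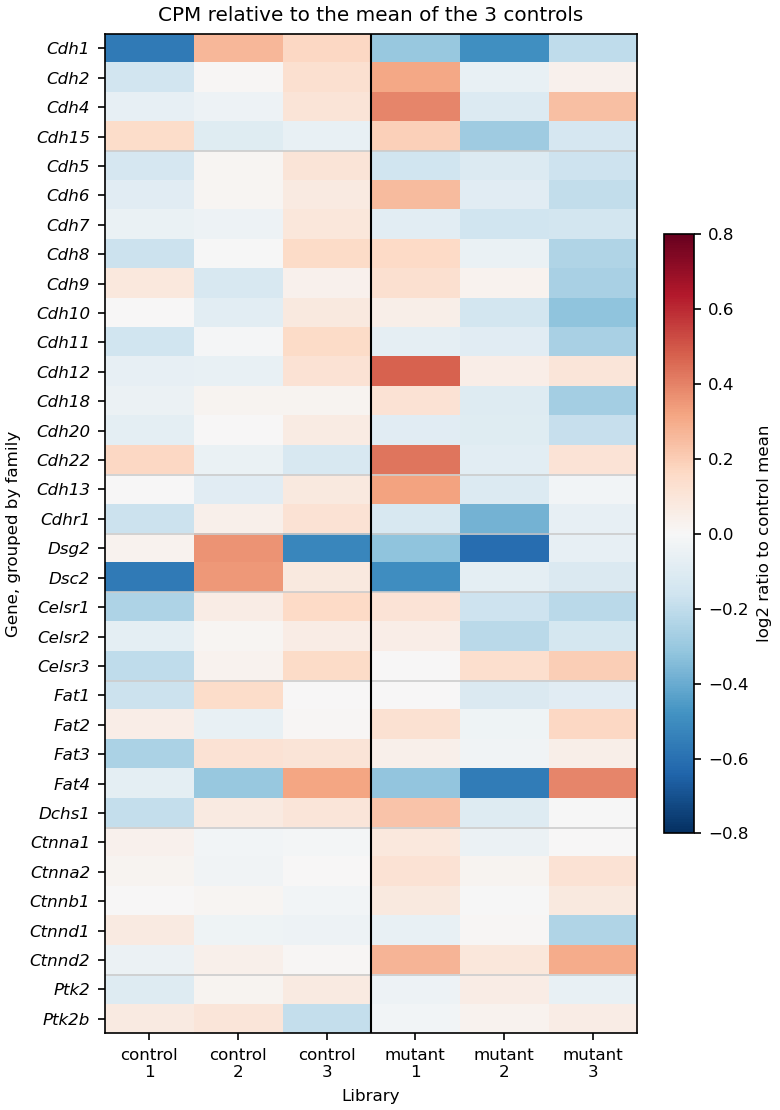
Log2 ratio of CPM in each of the 6 libraries (columns) to the mean of the 3 controls, for each of the 34 genes (rows, families separated by grey lines), red for higher and blue for lower. Mutant replicate 1 is reddest in Cdh4, Cdh12 and Cdh22, Ctnnd2 is red in all 3 mutants, and no family is of 1 colour throughout the mutants apart from the desmosomal pair.

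The partner genes were read from 5 lists and described by the 3 genes with the smallest unadjusted p of each. Of 24 other cadherin superfamily genes 14 were tested, and the smallest values belonged to Dsc3 (-0.97, unadjusted p = 0.0254, adjusted p = 0.628 in edgeR), the calsyntenin Clstn2 (-0.19, adjusted p = 0.716) and Cdhr3 (0.38). Dsc3 was at 1.85 ± 0.356 CPM in controls and 0.954 ± 0.654 in mutants. Of 17 other catenins and junction partners 16 were tested, led by the actin-binding Vcl (-0.17, -0.35 to 0.01), the plakophilin Pkp2 (-0.35) and Nectin3 (-0.15). Among the 15 kinase and actin partners, Abi1 (0.12), Tln2 (0.14) and Src (0.11) led, and all 15 intervals lay within 1.5-fold. Among the 10 planar polarity partners, Prickle2 (0.09), Fjx1 (0.11) and Prickle1 (-0.10) led, again with all 10 intervals within 1.5-fold. In the list of the β-catenin destruction complex, TCF factors and Wnt targets, Tcf7l1 was at 0.29 (0.02 to 0.56, unadjusted p = 0.0348, adjusted p = 0.689 in edgeR), Nkd1 at -0.16 and Apc at 0.17. Axin2, a direct target of β-catenin and named after its values were seen, was at 29.1 ± 1.93 and 29.0 ± 2.12 CPM.

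In whole tissue, fewer cells of a type and less RNA per cell cannot be told apart. The library markers covered the labelled tissue, with neuronal markers at 2939 to 3114 CPM in sum in controls and 2853 to 3037 in mutants, between -0.16 (Snap25) and 0.21 (Gad2). Oligodendrocyte markers were lower in 8 of 8, from -0.24 (Cnp) to -0.53 (Mal), at 21280 to 25580 CPM in sum in controls and 16950 to 19600 in mutants, and Mal and Mog (named after its value was seen) passed adjustment. Choroid plexus markers were lower in 4 of 5, from 0.03 (Clic6) to -0.45 (Ttr, edgeR adjusted p = 0.0764), at 1430 to 1725 and 1057 to 1265 CPM. Markers of oligodendrocyte progenitors were lower in 5 of 6, between -0.30 (Sox10) and 0.01 (Pdgfra), at 1026 to 1056 and 912.4 to 1013 CPM, with 0 past adjustment. The sums overlapped for astrocytes (-0.24 for Gfap to 0.26 for Aldh1l1), microglia (-0.14 for Aif1 to 0.15 for Csf1r), endothelium (-0.16 for Emcn to 0.01 for Flt1), mural cells (-0.26 for Acta2 to 0.21 for Kcnj8), meningeal fibroblasts (-0.17 for Lum to -0.08 for Col1a1), ependyma (-0.05 for Dynlrb2 to 0.28 for Ccdc153), cerebellar granule cells (-0.12 for Neurod1 to 0.16 for Cbln3) and Purkinje cells (-0.20 for Pcp2 to 0.004 for Itpr1). The part of these shifts in the values of the 34 genes was not tested.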

How the data were processed

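RNA of whole brains was made into polyA-enriched libraries and sequenced as single reads of 50 bases. Per the labels and the study's methods, the authors trimmed reads with Trim Galore 0.5.0, removed ribosomal, mitochondrial, phiX and adapter sequence with Bowtie2 2.3.4.1, aligned the rest to GRCm38 with STAR and counted genes with featureCounts (Subread 1.6.2). The deposited files hold whole-number read counts, 1 value per gene, that the authors had not normalised. The strand setting is not given in the sources used here.

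Counts were fitted with edgeR 4.0.16 in R 4.3.3 by the quasi-likelihood F test after filterByExpr and TMM normalisation, with genotype as the only term, all 6 libraries and Benjamini-Hochberg adjustment over 16731 genes. Genes were called at an adjusted p under 0.05 and over 2-fold. CPM values use effective library sizes, and standard errors come from the F statistic. GENCODE M21 matched 54495 of 54532 identifiers. Genes that overlap a member on the same strand, such as Gm28635 for Ctnnd1, were left out of a search for shared 50-base words. With the other genes, read in the sense orientation only, the transcripts of the 34 genes shared at most 2.07% of their words. The steps were tested on simulated counts. Chi-square per degree of freedom between libraries of 1 group was 3.42 to 12.3, so that each was kept as a separate sample. The study calls the animals littermates but the labels give no litters, and p-values measure the spread between these samples.

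Named genes were all 34 members, Mphosph8, the 3 partner genes per list with the smallest unadjusted p, the extremes of each marker list (1 list is not reported here) and the 3 genes most correlated with each member past an unadjusted p of 0.05. Members and lists were chosen with earlier results of these data known. Alternatives were DESeq2 1.42.0, limma-voom (limma 3.58.1), RLE normalisation in edgeR, no filter, at least 1 CPM in 3 libraries, protein-coding genes only, the replicate number as a block, other fold thresholds and each library left out. Members on chromosome 18 have no sequence shown.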

Additional observations from a re-analysis of the deposited data

How the results depend on the processing

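Under all 15 alternatives 0 of the 34 genes passed the threshold, and the lowest adjusted p of a member under any was 0.285 (Cdh4). Genes past the threshold over the whole table numbered 60, 96 with no filter on low counts and 105 with no fold threshold, and 47 to 67 with 1 library left out. Members with an unadjusted p under 0.05 numbered 1, 2 with no filter, and 1 to 6 with 1 library left out (6 without control replicate 1, 3 without mutant replicate 1 and 3 without mutant replicate 2). Of the 34 log2 fold changes, 19 kept their direction under 13 alternatives and 15 did not in at least 1, which is 24 of 442 values. Cdh6 was -0.01 in limma-voom and -0.006 with the replicate block. With 1 library left out, the ranges were -0.013 to 0.177 for Cdh2, -0.209 to 0.033 for Cdh15, -0.141 to 0.092 for Cdh6, -0.145 to 0.055 for Cdh8, -0.112 to 0.074 for Cdh9, -0.184 to 0.009 for Cdh18, -0.069 to 0.156 for Cdh13, -0.198 to 0.005 for Celsr1, -0.149 to 0.012 for Fat1, -0.092 to 0.082 for Fat3, -0.436 to 0.086 for Fat4, -0.055 to 0.116 for Dchs1, -0.023 to 0.043 for Ctnna1, -0.063 to 0.027 for Ptk2 and -0.06 to 0.075 for Ptk2b. The cause of these reversals was not tested. Mphosph8 ran from -1.13 to -0.85. Same-numbered libraries deviated from their group means with correlations of 0.11, -0.05 and 0.09. With 3 libraries per group these values cannot decide whether the replicate numbers pair the samples. The closest mutant library carried the same number for control replicates 1 and 3. For control replicate 2 it was mutant replicate 3. The replicate block gave 62 genes and 0 members past the threshold. The intervals of Dsg2, Dsc2 and Cdh1 reached past 1.5-fold on the lower side only. A decrease of that size in mutants thus lies inside them, and an increase of that size does not.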
